A study of Homo sapiens with 18 samples.

Results

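Among 10273 genes measured at a minimum level in both of 2 human lymphoma cell lines, 32 (0.311%) were higher in OCI-Ly1 and lower in TMD8 after the same dose of the drug JIB-04. The set included the B-cell regulators IRF4 and BATF and the lipid regulator SREBF1. Members were chosen from the 500 nM and vehicle libraries. A gene needed a mean of 5 CPM (counts per 1000000 library counts) or more in the vehicle or the 500 nM group of each line. It also needed log2((mean CPM at 500 nM + 0.5)/(mean CPM in vehicle + 0.5)) of 0.5 or more in OCI-Ly1 and of -0.5 or less in TMD8. The tables held 23686 gene symbols in all. For scale, 1551 genes (15.1%) passed the OCI-Ly1 condition and 1175 (11.4%) the TMD8 condition. Both lines passed upward for 679 genes and downward for 223, and 42 genes were lower in OCI-Ly1 and higher in TMD8.

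Both lines come from diffuse large B-cell lymphoma, an aggressive B-cell cancer. OCI-Ly1 is commonly used as a model of the germinal-centre type and TMD8 of the activated B-cell type. JIB-04 is a small-molecule inhibitor of Jumonji-domain histone demethylases, enzymes that remove methyl groups from histone lysines, and the study's title concerns the fidelity of heterochromatin. OCI-Ly1 cells, grown in IMDM, and TMD8 cells, grown in RPMI, were exposed to JIB-04 at 150 nM or at 500 nM, or to 0.01% DMSO alone. The 6 groups each had 3 bulk RNA libraries, depleted of ribosomal RNA and prepared as technical replicates. The labels do not state the treatment time, nor whether replicate libraries share a culture, so the p-values below may measure technical spread only. Line and medium changed together and cannot be told apart.

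IRF4 is a transcription factor that activated B cells and plasma cells need, and activated-type lymphoma lines are known to depend on it. BATF is a basic leucine-zipper factor of the AP-1 family that binds DNA together with IRF4. SREBF1 encodes SREBP1, which switches on genes of fatty-acid synthesis.

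The promoters of IRF4, BATF and SREBF1 are printed because these are the transcription factors of the set that belong to the B-cell or lipid gene lists used below. Each stretch is the 250 bases before the transcription start, 5′ to 3′ on the gene's own strand, from RefSeq on GRCh38.p14. Capitals mark the GC box GGGCGG or its complement CCGCCC, and also the TATA box TATAAA in IRF4, GCGTG in BATF and an NF-kB site in SREBF1. These were picked for display because they occur there. The IRF4 stretch also holds GCGTG, on the minus strand, which is not marked. IRF4 is on the plus strand at chr6:391502-391751, BATF on the plus strand at chr14:75522219-75522468 and SREBF1 on the minus strand at chr17:17836987-17837236.
IRF4: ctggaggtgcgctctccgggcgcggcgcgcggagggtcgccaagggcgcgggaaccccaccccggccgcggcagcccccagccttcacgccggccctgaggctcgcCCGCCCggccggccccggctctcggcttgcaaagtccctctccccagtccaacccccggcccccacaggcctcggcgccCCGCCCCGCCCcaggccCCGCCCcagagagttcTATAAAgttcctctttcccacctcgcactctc
BATF: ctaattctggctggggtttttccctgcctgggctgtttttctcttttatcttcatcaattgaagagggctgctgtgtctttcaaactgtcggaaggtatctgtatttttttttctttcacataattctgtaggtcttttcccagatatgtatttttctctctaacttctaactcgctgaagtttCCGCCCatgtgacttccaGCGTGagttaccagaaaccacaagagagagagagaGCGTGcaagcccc
SREBF1: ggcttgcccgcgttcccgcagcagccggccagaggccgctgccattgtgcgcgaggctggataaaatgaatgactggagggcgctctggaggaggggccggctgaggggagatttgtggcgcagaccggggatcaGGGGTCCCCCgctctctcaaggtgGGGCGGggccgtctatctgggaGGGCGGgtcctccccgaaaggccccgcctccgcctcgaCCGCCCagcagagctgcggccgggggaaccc
The IRF4 stretch held 4 GC boxes, all on the minus strand, at 144, 65, 60 and 48 bases before the start, and the TATA box at 32 bases before it. The BATF stretch held 1 GC box at 66 bases and GCGTG at 48 and 13 bases before the start. The SREBF1 stretch held 3 GC boxes, at 91, 69 and 31 bases, and the NF-kB site at 115 bases before the start.

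Of the 32 members, 22 had an entry in the RefSeq promoter table, which covers 250 bases before to 50 after the start. On either strand, GGGCGG occurred in 18 of the 22 (81.8%), against 44.6% of all 27305 promoters and 70.9% of the 8216 promoters of genes at the minimum level. GCGTG occurred in 12 (54.5%), against 36.3% and 52.7%. CCAAT occurred in 4 (18.2%), against 35.7% and 38.2%. No member held TGANTCA, the AP-1 site that BATF-type factors bind, which 7.76% of all promoters and 3.85% of those at the minimum level held. The members' median GC content was 69.5%, against 58.3% over all promoters and 65.3% over those at the minimum level, and their median number of CpG sites was 28, against 14 and 27. The GC-box shares were not adjusted for this difference in GC content.

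Each OCI-Ly1 library held between 17579732 and 32651115 estimated counts, and each TMD8 library between 9550092 and 20509500. No pair of replicate libraries agreed within sampling noise, so all were counted. All 6 B-cell markers were measured at 5 CPM or more in both lines. The summed activated B-cell markers were 699.7 to 716 CPM in the OCI-Ly1 vehicle libraries and 4863 to 5019 CPM in those of TMD8. The summed germinal-centre markers were 737 to 755 CPM and 358 to 385 CPM. This list was split: MME, BCL6, MYBL1 and S1PR2 had the higher vehicle mean in OCI-Ly1, and MEF2B, LMO2 and SERPINA9 in TMD8. MME (365 CPM) and BCL6 (210 CPM) made up most of the OCI-Ly1 sum. MEF2B, LMO2 and SERPINA9 were at 35.4, 0.013 and 0.131 CPM in OCI-Ly1 and at 223, 52.8 and 21.6 CPM in TMD8. The summed plasma-cell markers were 762 to 779 CPM and 419 to 426 CPM. The plasma-cell list was split too. IGJ, MZB1 and TNFRSF17 had the higher vehicle mean in OCI-Ly1, and PRDM1 and SDC1 in TMD8. IGJ (558 CPM) made up most of the OCI-Ly1 sum and PRDM1 (366 CPM) most of the TMD8 sum. PRDM1 was at 2.16 CPM in OCI-Ly1, and IGJ at 17.2 CPM in TMD8. Myeloid markers summed to at most 2.50 CPM in the vehicle libraries, with 3 of 6 at 0 in OCI-Ly1 and 2 of 6 at 0 in TMD8. Several lists of other cell types moved with dose. At 500 nM the myeloid sum was 3.92 to 4.502 CPM in TMD8, with 0 of 6 markers at 5 CPM or more and S100A8 at 0, against 1.35 to 2.22 CPM in vehicle. The 5 fibroblast and epithelial markers, none at 0, went in TMD8 from 19.9 to 22.1 CPM to 50.4 to 54.9 CPM, mostly through COL1A1, whose mean went from 3.36 to 30.5 CPM, while in OCI-Ly1 they went from 18.3 to 21.4 CPM to 16.8 to 17.6 CPM. The 6 T-cell markers went from 34.2 to 40.7 CPM to 21.3 to 23.4 CPM in OCI-Ly1, and in TMD8, where CD3E was at 0, from 35.8 to 37.2 CPM to 24.5 to 29.0 CPM. The 4 NK-cell markers went from 17.9 to 28.4 CPM to 11.9 to 13.9 CPM in OCI-Ly1, with GNLY at 0, and from 14.1 to 16.3 CPM to 16.9 to 18.8 CPM in TMD8. Single genes made up most of these sums. In TMD8 the T-cell sum was mostly CD5, whose mean went from 32.3 to 20.8 CPM, while CD3G went from 1.92 to 3.32 CPM. The NK-cell sums were mostly KLRD1, at 17.0 CPM in OCI-Ly1 vehicle and 14.2 CPM in TMD8 vehicle. NCAM1 varied widely in OCI-Ly1 vehicle, at 4.49 ± 6.41 CPM. The part of these lists in the members' changes was not tested. In bulk RNA, fewer cells of a kind and less RNA per cell cannot be told apart.

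At 500 nM the members' change had a median of 0.78 on the log2 scale in OCI-Ly1, with a range of 0.51 to 2.95, and of -0.62 in TMD8, with a range of -2.48 to -0.50. The medians over all genes at the minimum level were 0.098 and 0.022. In OCI-Ly1 the 3 libraries at 500 nM all lay above the 3 vehicle libraries for 32 of 32 members, and 44.3% of genes at the minimum level did so. In TMD8 they all lay below vehicle for 30 of 32, against 36.2% of those genes. The exceptions were C1orf95 and EIF3CL. These values chose the members, so they are given as a description. The members nearest the thresholds on the inside were EIF3CL (0.75 and -0.502), PRPSAP1 (0.58 and -0.504) and TRIM25 (0.59 and -0.507). The nearest genes outside were DBN1 (1.09 and -0.498), SNX18 (0.97 and -0.497) and GDF11 (0.493 and -0.72).

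**Figure D1:**
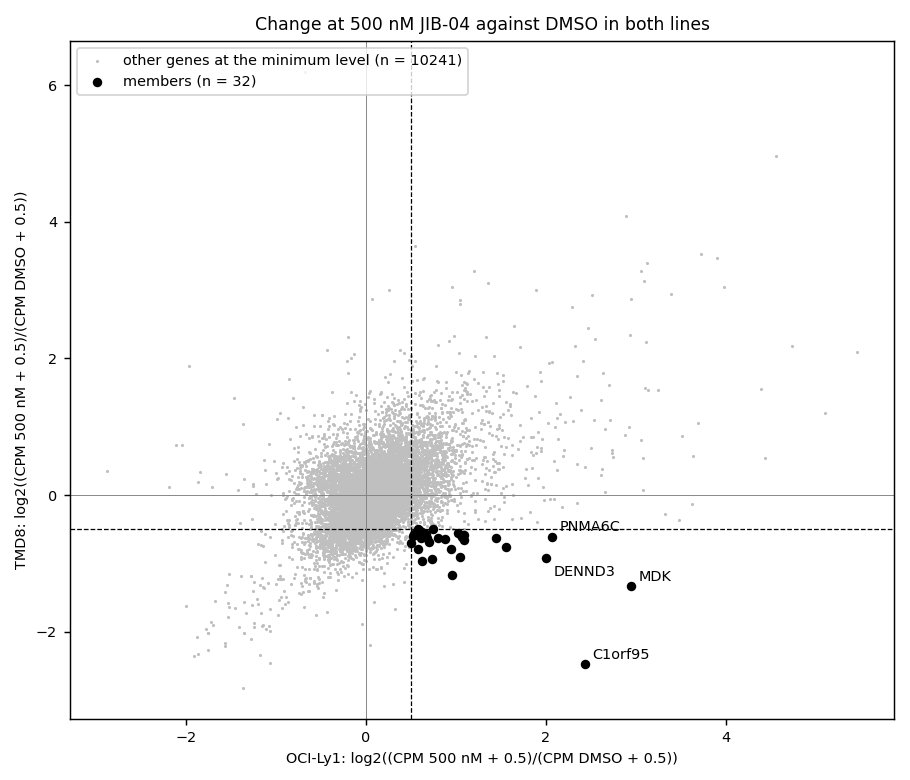
Log2 change of each gene at 500 nM JIB-04 against DMSO in OCI-Ly1 (x axis) and TMD8 (y axis), from mean CPM plus 0.5. Dashed lines mark 0.5 and -0.5, black points are the 32 members and grey points the other 10241 genes at the minimum level. Most grey points lie near 0 or upward in both lines, and C1orf95, MDK, DENND3 and PNMA6C are members far from the bulk.

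The scaling of the libraries bears on how many genes pass both thresholds but not on the direction of the members. All 32 were higher in OCI-Ly1 and lower in TMD8 at 500 nM on CPM by column sum, TMM-scaled CPM, median-ratio CPM, TPM and median-ratio TPM. On CPM by column sum this is the rule itself, and the other scales use the same libraries. The directions are therefore a description and not separate support. Past both thresholds were 26 of them with TMM scaling, 25 with median-ratio scaling of CPM, 32 on TPM and 23 with median-ratio scaling of TPM. TPM moved the median of all genes at the minimum level to -0.41 in TMD8, where the short RNA MIR3687 took 16.7% of all TPM in vehicle and 21.7% at 500 nM. In OCI-Ly1, 12 members had a vehicle mean under 5 CPM, against 2.91% of genes at the minimum level. Those 12 entered through the 500 nM group alone and so had to be higher there. In TMD8, MDK was the 1 member under 5 CPM at 500 nM.

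IRF4 stood at 241, 223 and 212 CPM in the OCI-Ly1 vehicle libraries, at 231, 229 and 242 CPM at 150 nM and at 468, 464 and 442 CPM at 500 nM. Only the 500 nM libraries were apart from the others. In TMD8 it stood at 2722, 2576 and 2565 CPM in vehicle, 2377, 2200.0 and 2142 CPM at 150 nM and 1783, 1767 and 1773 CPM at 500 nM, and the 3 groups did not overlap. The 500 nM mean was 2.03-fold vehicle in OCI-Ly1 and 67.7% of vehicle in TMD8. Even so, TMD8 held 3.87 times the OCI-Ly1 mean at 500 nM, against 11.6 times in vehicle. At 150 nM IRF4 fell in TMD8 by 0.31 on the log2 scale (SE 0.06, edgeR adjusted p = 0.00029), and its OCI-Ly1 change was 0.05 (SE 0.05, edgeR adjusted p = 0.83).

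BATF, the partner of IRF4 at composite DNA sites, was at a far higher level in TMD8. Its OCI-Ly1 libraries held 3.99, 2.56 and 2.17 CPM in vehicle, 2.76, 2.24 and 3.58 CPM at 150 nM and 6.28, 6.24 and 5.67 CPM at 500 nM. The vehicle and 150 nM libraries overlapped at a low level, and those at 500 nM were higher. TMD8 libraries held 144, 151 and 148 CPM in vehicle, 128, 119.8 and 115 CPM at 150 nM and 82.1, 84.2 and 89.2 CPM at 500 nM, in 3 separate groups. In vehicle the TMD8 mean was 50.8 times that of OCI-Ly1, and at 500 nM 14.05 times. BATF fell in TMD8 at 150 nM by 0.37 on the log2 scale (SE 0.05, edgeR adjusted p = 1.5e-05), and its OCI-Ly1 change was -0.05 (SE 0.22, edgeR adjusted p = 0.96).

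ELK2AP, a transcribed pseudogene related to the ETS factor ELK1 that lies in the immunoglobulin heavy-chain region, moved beside them. It held 58.6, 47.1 and 53.8 CPM in OCI-Ly1 vehicle, 63.7, 51.6 and 54.9 CPM at 150 nM and 110.0, 118 and 106 CPM at 500 nM. In TMD8 it held 242, 224 and 237 CPM, 174, 170.2 and 167 CPM and 157, 158 and 155 CPM in the same order. The first 2 OCI-Ly1 groups overlapped, and the 3 TMD8 groups did not. It fell in TMD8 at 150 nM by 0.55 on the log2 scale (SE 0.05, edgeR adjusted p = 1.5e-07). Reads of ELK2AP, its parent gene ELK1 and the overlapping immunoglobulin transcripts could have been shared by the counting, so its values are uncertain. ELK1 itself was at 32.1 ± 0.902 CPM in OCI-Ly1 vehicle and 33.1 ± 3.96 CPM at 500 nM, and at 53.7 ± 3.95 and 47.6 ± 1.11 CPM in TMD8.

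**Figure D2:**
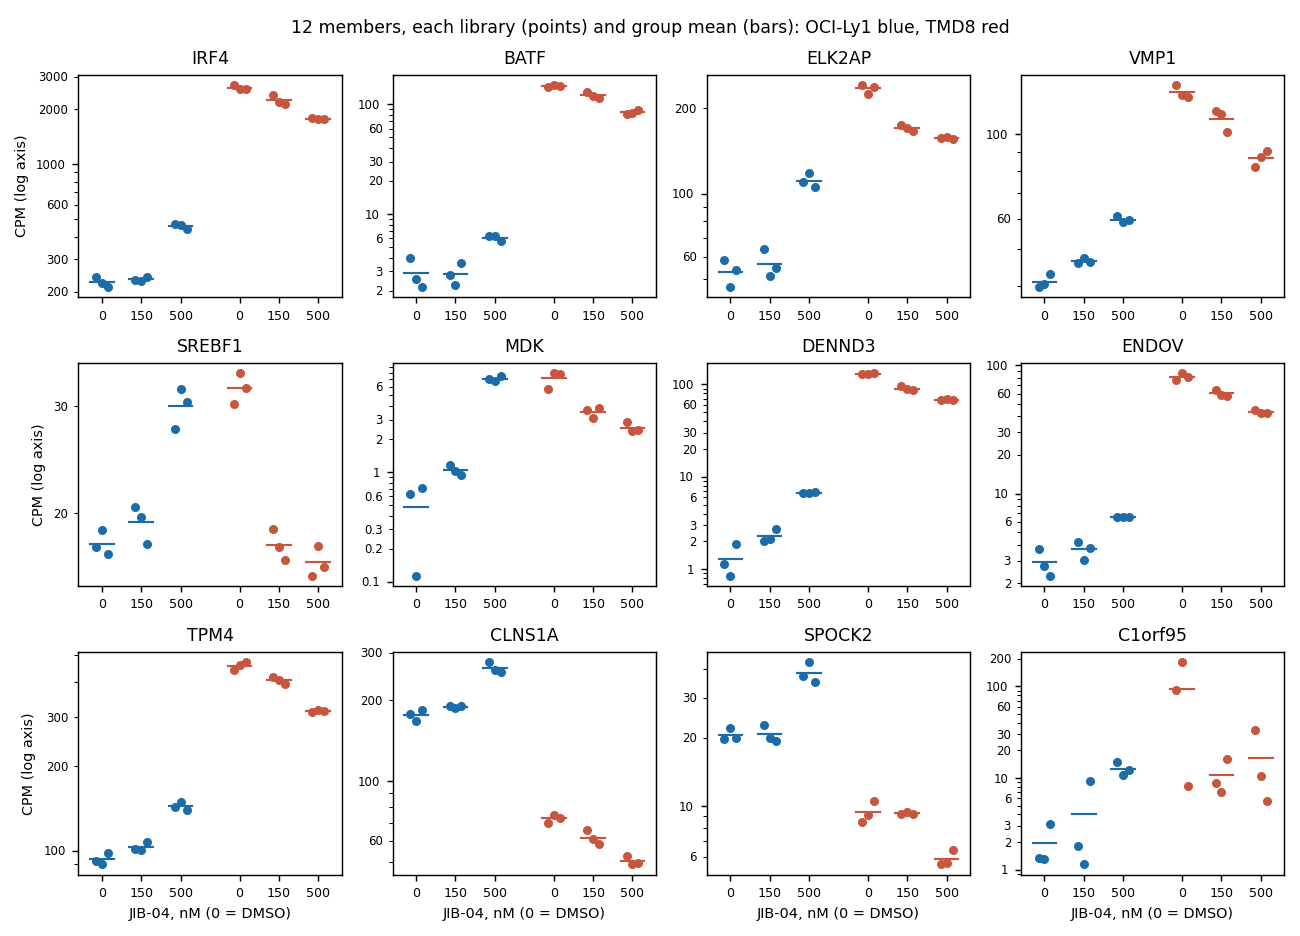
CPM of 12 members in each library (points, log axis) and the group mean (bars) in OCI-Ly1 (blue) and TMD8 (red) at 0 (DMSO), 150 and 500 nM JIB-04. Each panel has its own scale. Blue points are higher at 500 nM than in DMSO in every panel and red points lower, with overlap in TMD8 only for C1orf95.

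IRF4 was the 1 member among 26 B-cell transcription factors tested. Of these, 11 were called higher and 9 lower at 500 nM in OCI-Ly1 (edgeR adjusted p under 0.05), with a median change of 0.05. In TMD8, 11 were called higher and 10 lower, with a median of 0.07. Of all genes tested in OCI-Ly1, 27.7% were called higher at this dose and 25.9% lower. In TMD8 these shares were 29.9% and 30.7%. LMO2, a germinal-centre factor, had the same 2 directions but stayed under the minimum level in OCI-Ly1, at 0.013 ± 0.0226 CPM in vehicle and 1.12 ± 0.665 CPM at 500 nM. In TMD8 it went from 52.8 ± 1.05 to 20.3 ± 1.19 CPM, a change of -1.47 (SE 0.09, edgeR adjusted p = 1.4e-10). PAX5, which maintains B-cell identity, also had these 2 directions, with changes of 0.24 (SE 0.07, edgeR adjusted p = 0.0062) in OCI-Ly1 and -0.29 (SE 0.05, edgeR adjusted p = 2e-05) in TMD8 that were under 0.5 in size. ID3, IRF8 and MYBL1 were called in the opposite pair of directions, at -0.72, -0.25 and -0.49 in OCI-Ly1 (edgeR adjusted p = 1.1e-06, 0.00083 and 0.00056) and at 0.56, 0.35 and 0.48 in TMD8 (edgeR adjusted p = 5.7e-06, 0.00015 and 0.0018). XBP1, which drives the secretory programme of plasma cells, rose in OCI-Ly1 by 1.70 (SE 0.12, edgeR adjusted p = 1.4e-09) and in TMD8 by 0.70 (SE 0.06, edgeR adjusted p = 1.4e-08). IKZF1, the lymphoid factor Ikaros, fell in both, with changes of -0.79 (SE 0.05, edgeR adjusted p = 4.2e-10) in OCI-Ly1 and -0.94 (SE 0.06, edgeR adjusted p = 1.9e-10) in TMD8. LMO2, PAX5, ID3, IRF8, MYBL1, XBP1 and IKZF1 were picked after their values were seen. The counts include IRF4, whose 500 nM values chose it.

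Of the 8 activated B-cell markers, IRF4 and BATF were members. At 500 nM, 5 of 7 tested were called higher and 1 lower in OCI-Ly1, with a median of 0.51. In TMD8, 3 of 8 were called higher and 4 lower, with a median of -0.19. Over all genes tested at this dose, 27.7% were called higher and 25.9% lower in OCI-Ly1, and 29.9% and 30.7% in TMD8. Summed over the 8, the markers were at 1037 to 1068 CPM at 500 nM in OCI-Ly1 and at 3790 to 3808 CPM in TMD8. IRF4 made up a large part of both sums, so they are not separate from its own values, and the counts include both members. CCND2, a cell-cycle cyclin in this list that was picked after its values were seen, was near absent from OCI-Ly1, at 0.154 ± 0.0744 CPM in vehicle and 0.21 ± 0.156 CPM at 500 nM. In TMD8 it fell from 1078 ± 2.58 to 756 ± 11.3 CPM. The 3 markers called higher in TMD8 at 500 nM were FOXP1, IL16 and TNFRSF13B. Their log2 changes were 0.40, 0.45 and 0.31 (edgeR adjusted p = 4.4e-06, 1.5e-06 and 0.00015). ENTPD1 was the 1 marker called lower in OCI-Ly1, at -0.41 (edgeR adjusted p = 7.9e-06). It was called lower in TMD8 too, at -0.37 (edgeR adjusted p = 1.1e-06).

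SREBF1 was the member with lipid-regulating function. It stood at 17.6, 18.8 and 17.2 CPM in OCI-Ly1 vehicle, 20.5, 19.8 and 17.8 CPM at 150 nM and 27.5, 32.1 and 30.5 CPM at 500 nM. In TMD8 it stood at 30.3, 33.9 and 32.1 CPM in vehicle, 18.8, 17.6 and 16.8 CPM at 150 nM and 15.8, 17.7 and 16.3 CPM at 500 nM. In OCI-Ly1 the 500 nM libraries stood apart from the other groups, and in TMD8 the vehicle libraries did, so most of the TMD8 difference was already present at 150 nM. There it fell by 0.95 on the log2 scale (SE 0.07, edgeR adjusted p = 3.7e-08), and its OCI-Ly1 change was 0.11 (SE 0.09, edgeR adjusted p = 0.7). The order of the lines crossed: TMD8 held 1.798 times the OCI-Ly1 mean in vehicle and 0.553 times at 500 nM.

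The genes of sterol and fatty-acid synthesis were called lower more often than higher at 500 nM in OCI-Ly1, where SREBF1 was higher. Of 32 tested there, 4 were called higher and 17 lower at 500 nM, with a median of -0.26. In TMD8, 7 of 31 were called higher and 14 lower at 500 nM, with a median of -0.10, and 3 were called higher and 20 lower at 150 nM, with a median of -0.28. Beside these counts, the shares of all genes tested called higher and lower were 27.7% and 25.9% in OCI-Ly1 at 500 nM, 29.9% and 30.7% in TMD8 at 500 nM and 19.2% and 25.0% in TMD8 at 150 nM. FASN, the fatty-acid synthase that SREBP1 activates, had 500 nM changes of -0.61 (SE 0.08, edgeR adjusted p = 4.3e-06) in OCI-Ly1 and -1.02 (SE 0.06, edgeR adjusted p = 5.7e-11) in TMD8. ELOVL6, a fatty-acid elongase that SREBP1 also activates, did have the 2 directions, with changes of 0.34 (SE 0.08, edgeR adjusted p = 0.0019) and -1.46 (SE 0.16, edgeR adjusted p = 5e-07), but its OCI-Ly1 change was under 0.5. Both genes were picked after their values were seen, and the counts include SREBF1 itself.

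Other members have metabolic or organelle roles. SLC25A30, a mitochondrial carrier, had means of 6.24 ± 0.694, 7.09 ± 0.594 and 11.2 ± 0.68 CPM in OCI-Ly1 across vehicle, 150 nM and 500 nM, and of 60.6 ± 2.81, 46.8 ± 3.74 and 39.2 ± 1.13 CPM in TMD8 (SD, n = 3). PRPSAP1, an associate of the enzyme that makes phosphoribosyl pyrophosphate, had means of 53.1 ± 3.63, 50.6 ± 4.44 and 79.8 ± 5.08 CPM in OCI-Ly1 and 45.9 ± 1.82, 37.6 ± 0.424 and 32.2 ± 0.672 CPM in TMD8. VMP1, an endoplasmic reticulum protein of autophagosome formation, had means of 41.1 ± 1.64, 46.5 ± 0.815 and 59.7 ± 1.08 CPM and 129 ± 5.05, 109.9 ± 7.51 and 86.4 ± 3.998 CPM. Its gene overlaps the microRNA-21 precursor, whose own row was at 0.436 ± 0.0821 CPM in TMD8 vehicle and 1.21 ± 0.366 CPM at 500 nM. In TMD8 at 150 nM, SLC25A30, PRPSAP1 and VMP1 fell by 0.46, 0.37 and 0.32 on the log2 scale (edgeR adjusted p = 3e-05, 5.8e-05 and 0.00033).

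Several members encode secreted, Golgi or membrane proteins. MDK encodes midkine, a heparin-binding growth factor. Its OCI-Ly1 libraries held 0.626, 0.114 and 0.71 CPM in vehicle, 1.16, 1.02 and 0.933 CPM at 150 nM and 7.04, 6.73 and 7.53 CPM at 500 nM. In TMD8 they held 5.78, 7.94 and 7.801 CPM, 3.72, 3.09 and 3.83 CPM and 2.84, 2.37 and 2.41 CPM. The 500 nM libraries of OCI-Ly1 were in the range of the TMD8 vehicle libraries, and those of TMD8 were lower than either. The 500 nM mean was 14.7-fold vehicle in OCI-Ly1, a fold that rests on vehicle values under 1 CPM, and 35.4% of vehicle in TMD8. MDK fell in TMD8 at 150 nM by 1.10 on the log2 scale (SE 0.16, edgeR adjusted p = 2.5e-05), and its OCI-Ly1 change was 0.99 (SE 0.34, edgeR adjusted p = 0.27).

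SPOCK2, which encodes the extracellular-matrix proteoglycan testican-2, was a member that stood higher in OCI-Ly1 throughout. It held 19.7, 22.1 and 19.9 CPM in OCI-Ly1 vehicle, 22.7, 19.9 and 19.4 CPM at 150 nM and 37.2, 42.9 and 35.03 CPM at 500 nM. In TMD8 it held 8.52, 9.14 and 10.5 CPM, 9.27, 9.403 and 9.25 CPM and 5.54, 5.65 and 6.39 CPM. In both lines vehicle and 150 nM overlapped and 500 nM was apart, and neither 150 nM change was called, at 0.01 (SE 0.09, edgeR adjusted p = 0.99) in OCI-Ly1 and -0.10 (SE 0.11, edgeR adjusted p = 0.46) in TMD8. GOLM1, a Golgi membrane protein, had means of 4.096 ± 0.468, 3.91 ± 0.898 and 7.01 ± 0.434 CPM in OCI-Ly1 and 36.8 ± 1.498, 27.99 ± 1.89 and 22.7 ± 1.12 CPM in TMD8 (SD, n = 3). CHST2, a sulfotransferase that modifies glycans, had means of 3.12 ± 0.422, 3.64 ± 0.373 and 7.23 ± 0.482 CPM and 47.7 ± 3.899, 41.01 ± 2.28 and 31.5 ± 1.24 CPM. OPN3, a light-sensing-type receptor of the opsin family, had means of 3.84 ± 1.07, 4.58 ± 1.12 and 5.99 ± 0.476 CPM and 54.3 ± 1.04, 39.5 ± 2.98 and 31.3 ± 1.64 CPM. These 3 genes had OCI-Ly1 means under 10 CPM and higher means in TMD8 in each group. ENDOD1, named for an endonuclease-like domain, had means of 3.23 ± 0.948, 4.74 ± 0.62 and 9.66 ± 1.499 CPM and 8.496 ± 1.49, 7.87 ± 1.77 and 5.34 ± 1.12 CPM. At 150 nM in TMD8, GOLM1, CHST2 and OPN3 fell, and ENDOD1 was not called, at -0.21 (SE 0.17, edgeR adjusted p = 0.35).

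Among signalling and cytoskeletal genes, DENND3 had the widest gap between the lines in vehicle of all 32 members, by the ratio of means. It encodes an activator of the small GTPase RAB12. Its OCI-Ly1 libraries held 1.14, 0.853 and 1.89 CPM in vehicle, 2.04, 2.11 and 2.697 CPM at 150 nM and 6.74, 6.65 and 6.77 CPM at 500 nM. TMD8 libraries held 129, 129 and 132 CPM, 95.6, 88.2 and 87.2 CPM and 68.1, 68.97 and 68.7 CPM. The groups did not overlap in either line. TMD8 held 100.4 times the OCI-Ly1 mean in vehicle and 10.2 times at 500 nM. The 150 nM change was 0.76 (SE 0.24, edgeR adjusted p = 0.22) in OCI-Ly1, which was called without the third vehicle library (1.16, edgeR adjusted p = 0.024). In TMD8 DENND3 fell by 0.61 on the log2 scale (SE 0.05, edgeR adjusted p = 4.3e-08).

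TPM4, a tropomyosin of the actin cytoskeleton, had 92.1, 89.4 and 98.2 CPM in OCI-Ly1 vehicle, 102, 101 and 107 CPM at 150 nM and 143, 149.9 and 140.2 CPM at 500 nM. In TMD8 it had 442, 462 and 471 CPM, 418, 408 and 392 CPM and 314, 317 and 316 CPM. The TMD8 groups did not overlap, and it fell there at 150 nM by 0.26 on the log2 scale (SE 0.05, edgeR adjusted p = 0.00018). DIRAS1, a small GTPase of the RAS superfamily, had means of 2.82 ± 0.285, 3.44 ± 0.308 and 6.59 ± 0.339 CPM in OCI-Ly1 and 19.1 ± 1.18, 15.2 ± 1.52 and 11.96 ± 0.749 CPM in TMD8 (SD, n = 3). PPM1E, a protein phosphatase, had means of 18.2 ± 0.863, 19.7 ± 1.25 and 29.6 ± 0.541 CPM and 25.5 ± 1.002, 20.5 ± 0.987 and 16.4 ± 0.976 CPM. APBB2, an adaptor that binds the amyloid precursor protein, had means of 23.9 ± 2.56, 29.9 ± 1.74 and 50.95 ± 0.885 CPM and 12.97 ± 1.43, 11.03 ± 0.0681 and 8.28 ± 0.727 CPM. Unlike DIRAS1 and PPM1E, APBB2 had the higher vehicle mean in OCI-Ly1. CACNB1, a voltage-gated calcium-channel subunit, had means of 11.9 ± 1.28, 11.9 ± 1.62 and 17.7 ± 1.56 CPM and 13.8 ± 1.01, 11.3 ± 0.448 and 9.23 ± 1.301 CPM. IFT57, a component of intraflagellar transport, had means of 40.1 ± 2.82, 46.7 ± 1.64 and 58.1 ± 3.35 CPM and 30.5 ± 0.471, 23.9 ± 1.28 and 19.9 ± 0.742 CPM. All 5 fell in TMD8 at 150 nM. The APBB2 change was -0.32 (SE 0.10, edgeR adjusted p = 0.018), and its call was lost under 4 of 16 alternatives. These were leaving out the third vehicle or the third 150 nM library (edgeR adjusted p = 0.084 and 0.078), scaling by library size alone (edgeR adjusted p = 0.075) and DESeq2 (adjusted p = 0.06). Its OCI-Ly1 change at 150 nM, 0.31 (SE 0.08, edgeR adjusted p = 0.095), was not called but was under 4 of 16: with no low-count filter (edgeR adjusted p = 0.02), by DESeq2 (adjusted p = 0.029), with a replicate block (edgeR adjusted p = 0.047) and without the third OCI-Ly1 vehicle library (edgeR adjusted p = 0.018).

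A group of members acts on nucleic acids or chromatin. ENDOV encodes endonuclease V, which cleaves RNA or DNA beside inosine. It stood at 3.72, 2.73 and 2.29 CPM in OCI-Ly1 vehicle, 4.19, 3.05 and 3.73 CPM at 150 nM and 6.58, 6.605 and 6.56 CPM at 500 nM. In TMD8 it stood at 76.2, 86.4 and 81.1 CPM, 64.7, 58.9 and 57.8 CPM and 44.5, 42.1 and 42.6 CPM, in 3 separate groups. ENDOV fell in TMD8 at 150 nM by 0.51 on the log2 scale (SE 0.06, edgeR adjusted p = 1.9e-06). CLNS1A, an assembly factor for spliceosomal particles, was a member with the higher level in OCI-Ly1. It held 178, 168 and 184 CPM in OCI-Ly1 vehicle, 189.9, 187 and 190.0 CPM at 150 nM and 276, 259.6 and 254 CPM at 500 nM. In TMD8 it held 70.04, 74.96 and 72.9 CPM, 65.8, 60.98 and 58.2 CPM and 52.5, 48.98 and 49.4 CPM. It fell there at 150 nM by 0.32 on the log2 scale (SE 0.06, edgeR adjusted p = 0.00016). The lines therefore moved apart for CLNS1A, from a TMD8 mean of 0.412 times that of OCI-Ly1 in vehicle to 0.191 times at 500 nM.

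CSDA, the DNA- and RNA-binding cold-shock protein now named YBX3, had means of 19.5 ± 0.826, 19.5 ± 0.511 and 30.2 ± 1.78 CPM in OCI-Ly1 and 147 ± 2.47, 121 ± 7.23 and 95.3 ± 2.28 CPM in TMD8 across vehicle, 150 nM and 500 nM (SD, n = 3). C17orf96, now named EPOP and known as a partner of Polycomb repressive complex PRC2, had means of 11.03 ± 0.665, 10.9 ± 0.229 and 17.9 ± 1.24 CPM and 72.2 ± 9.74, 65.4 ± 4.504 and 48.7 ± 3.34 CPM. For both genes the OCI-Ly1 means in vehicle and at 150 nM were within 1 SD of each other. TEAD4, the DNA-binding partner of YAP, had means of 13.1 ± 0.875, 13.3 ± 0.906 and 18.8 ± 3.01 CPM and 22.2 ± 0.737, 16.6 ± 0.83 and 13.4 ± 0.689 CPM. TRIM25, a ubiquitin ligase of antiviral RNA sensing, had means of 64.6 ± 2.88, 71.9 ± 4.36 and 97.8 ± 1.94 CPM and 119.7 ± 1.85, 100.1 ± 4.198 and 84.1 ± 4.23 CPM. All 4 fell in TMD8 at 150 nM, with edgeR adjusted p from 1.3e-05 to 0.023. The C17orf96 call (edgeR adjusted p = 0.023) was lost under 5 of 16 alternatives. These were scaling by library size alone (edgeR adjusted p = 0.15) and leaving out the second or the third vehicle library (0.087 and 0.11) or the second or the third library at 150 nM (0.054 and 0.2).

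The remaining members are poorly characterised or were measured with doubt. C1orf95, now named STUM, had the largest opposite change of the set by its smaller arm, 2.44 in OCI-Ly1 and -2.48 in TMD8 at 500 nM. Its TMD8 vehicle libraries held 90.5, 184 and 8.19 CPM, those at 150 nM 8.901, 7.09 and 16.3 CPM and those at 500 nM 33.4, 10.5 and 5.55 CPM. In OCI-Ly1 it held 1.33, 1.31 and 3.16 CPM, 1.797, 1.14 and 9.23 CPM and 15.1, 10.8 and 12.2 CPM. The third TMD8 vehicle library lay within the range of the treated ones, so the TMD8 groups overlapped, and the highest vehicle library held far more than the lowest. It was called lower in TMD8 at 150 nM, -3.15 (SE 0.70, edgeR adjusted p = 0.0014), despite that overlap.

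EIF3CL is a near-identical copy of EIF3C, a subunit of a translation initiation factor, and the division of reads between them is uncertain. It held 8.13, 4.85 and 9.74 CPM in OCI-Ly1 vehicle, 12.6, 22.2 and 23.2 CPM at 150 nM and 13.8, 11.6 and 13.9 CPM at 500 nM. In TMD8 it held 12.6, 6.07 and 9.596 CPM, 8.61, 4.73 and 7.89 CPM and 4.53, 6.695 and 8.28 CPM, with overlapping groups, and its 150 nM change there was called only with no low-count filter or without the second vehicle library (edgeR adjusted p = 0.013 and 0.011). It rose in OCI-Ly1 at 150 nM, by 1.31 (SE 0.21, edgeR adjusted p = 0.0025), and its mean there was above that at 500 nM. The call was lost on both TPM scales (limma adjusted p = 0.12 and 0.1). The sum of EIF3C and EIF3CL was 496 ± 14.9, 517 ± 31.2 and 558 ± 11.1 CPM in OCI-Ly1 and 558 ± 31.1, 482 ± 12.02 and 441 ± 12.7 CPM in TMD8 (SD, n = 3). On that sum the 500 nM differences had the same 2 directions, but in neither line were they large enough to pass the rule. At 150 nM in OCI-Ly1, the libraries of the sum overlapped those of vehicle. The rise called there for EIF3CL was not tested on the sum.

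PNMA6C, a member of the paraneoplastic antigen family whose copies resemble each other, had means of 1.42 ± 0.191, 2.29 ± 0.461 and 7.58 ± 0.993 CPM in OCI-Ly1 and 9.88 ± 1.74, 10.3 ± 1.54 and 6.31 ± 0.288 CPM in TMD8 (SD, n = 3). Its family member PNMA6D was at 3.06 ± 0.756 CPM in TMD8 vehicle and 2.58 ± 0.367 CPM at 500 nM. C4orf32, now named FAM241A, had means of 3.44 ± 0.425, 4.52 ± 1.11 and 11.1 ± 0.559 CPM and 18.4 ± 1.09, 13.99 ± 1.23 and 10.6 ± 1.196 CPM. C12orf75 had means of 15.8 ± 0.877, 19.7 ± 1.24 and 24.7 ± 0.716 CPM and 16.7 ± 0.721, 11.2 ± 0.818 and 8.36 ± 0.473 CPM, with TMD8 slightly higher in vehicle and OCI-Ly1 higher at both doses. C4orf32 and C12orf75 fell in TMD8 at 150 nM, and PNMA6C was not called there, at -0.04 (SE 0.13, edgeR adjusted p = 0.84).

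The 150 nM libraries took no part in choosing the members, but the vehicle libraries they are compared with did, and that choice pulls the 150 nM changes in the directions of the rule. In TMD8, 28 of 32 members were called lower at 150 nM and 0 higher (edgeR adjusted p under 0.05). Over all 15363 genes tested, 25.0% were called lower and 19.2% higher, and among genes at the minimum level 34.8% were called lower. SPOCK2, ENDOD1, PNMA6C and EIF3CL were not called. The members' median change was -0.41 on the log2 scale, against 0.011 over all genes tested and -0.059 over those at the minimum level. The fitted change was below 0 for 32 of 32. The 150 nM libraries all lay below vehicle for 26 members, against 28.1% of genes at the minimum level.

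In OCI-Ly1, 2 of 32 members, EIF3CL among them, were called higher at 150 nM and 0 lower. The background was 0.748% of 15638 genes called higher and 0.141% lower. The count of 2 became 4 without the third vehicle library, and 1 without the first or second vehicle library or the second or the third 150 nM library. At an unadjusted p under 0.05, 13 members were higher and 0 lower, against 5.51% of genes tested higher and 4.64% lower. The median change was 0.17, against -0.0046 over all genes tested and 0.0013 over those at the minimum level. The fitted change was above 0 for 26 of 32. The 150 nM libraries all lay above vehicle for 13 members, against 8.36% of genes at the minimum level. No member was called in either line against its direction at 500 nM. The counts of 0 in both lines were also 0 at an unadjusted p under 0.05, and 0 by DESeq2 and by limma.

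By the medians, the larger part of the OCI-Ly1 difference lay between 150 and 500 nM. All 500 nM libraries were above all 150 nM libraries for 30 members, against 41.9% of genes at the minimum level, and the median change between these doses was 0.61. In TMD8, 28 members had all 500 nM libraries below all 150 nM libraries, against 28.9% of those genes, with a median of -0.35. The 150 nM mean lay between the vehicle and 500 nM means for 27 members in OCI-Ly1 and for 30 in TMD8. These steps use the 500 nM libraries of the rule and are descriptions.

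**Figure D3:**
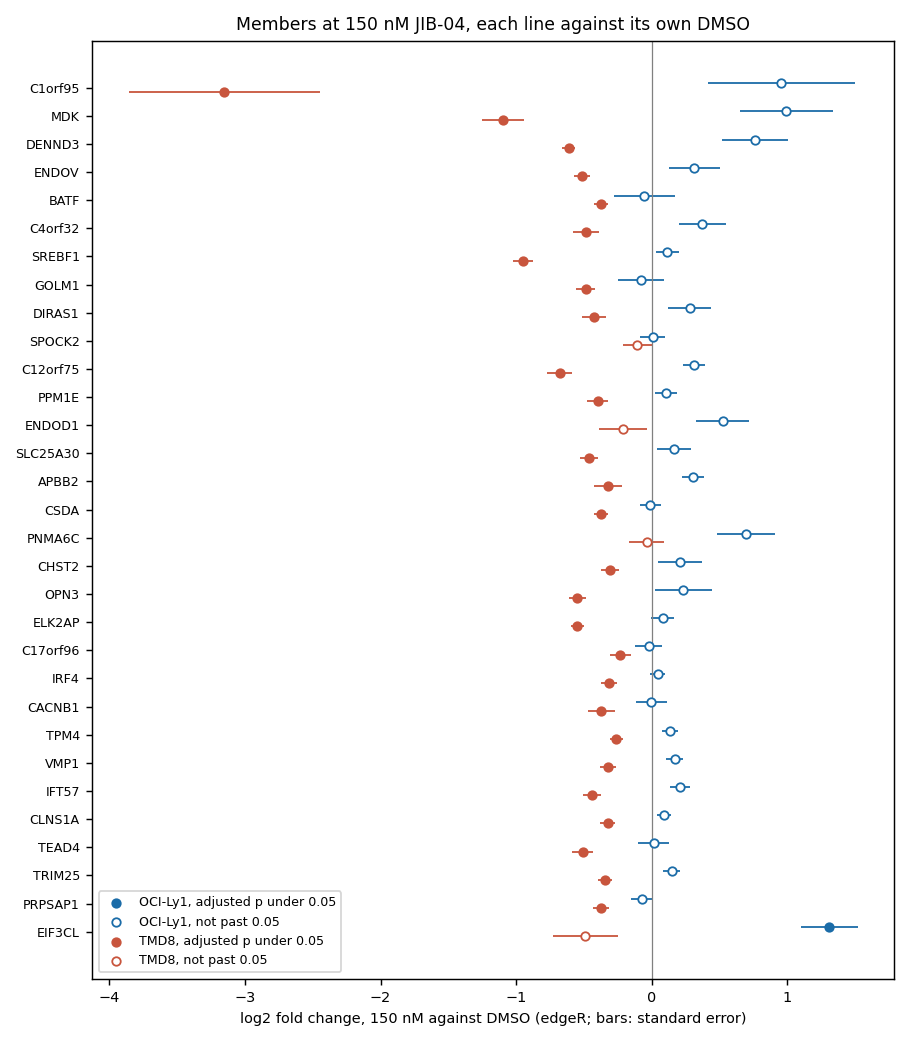
Log2 change at 150 nM JIB-04 against DMSO (x axis, edgeR) with its standard error (bars) for 31 members (y axis) in OCI-Ly1 (blue) and TMD8 (red). Filled points have an adjusted p under 0.05 and open points do not. Most TMD8 points are filled and lie below 0, while most OCI-Ly1 points are open and lie between 0 and 0.5.

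A single model over all 18 libraries tested whether the 150 nM response differed between the lines, with the same dependence on the vehicle libraries. The OCI-Ly1 change was above the TMD8 change for 26 of 32 members and below it for 0 (edgeR adjusted p under 0.05). Of 16604 genes tested, 15.0% were called above and 8.33% below, and of those at the minimum level 23.5% and 9.78%. No member was below at an unadjusted p under 0.05, by DESeq2 or by limma. The members' median difference was 0.63, against -0.0023 over all genes tested and 0.075 over those at the minimum level. The fitted difference was above 0 for all 32. The difference was 1.07 (SE 0.12, edgeR adjusted p = 7e-07) for SREBF1, 1.36 (SE 0.21, edgeR adjusted p = 3.4e-05) for DENND3 and 2.09 (SE 0.37, edgeR adjusted p = 0.00017) for MDK. For IRF4 it was smaller, at 0.36 (SE 0.08, edgeR adjusted p = 0.0024). The largest estimate, for C1orf95, was 4.08 (SE 1.23, edgeR adjusted p = 0.017), and without the third OCI-Ly1 library at 150 nM it was 2.73 and not called (edgeR adjusted p = 0.25), nor was it called on either TPM scale (limma adjusted p = 0.06 and 0.083). BATF, GOLM1, SPOCK2, ENDOD1, C17orf96 and CACNB1 were not called. BATF had 0.30 (SE 0.20, edgeR adjusted p = 0.3) and was called without the first OCI-Ly1 vehicle library (0.64, edgeR adjusted p = 0.021). GOLM1 was called without the first OCI-Ly1 library at 150 nM (0.55, edgeR adjusted p = 0.018) and on both TPM scales (limma adjusted p = 0.016 and 0.047). ENDOD1 was called under 8 of 25 alternatives: with no low-count filter (edgeR adjusted p = 0.017), by DESeq2 (adjusted p = 0.042), on both TPM scales (limma adjusted p = 0.047 and 0.05), with a replicate block (edgeR adjusted p = 0.018), and without the third OCI-Ly1 vehicle, the third TMD8 vehicle or the first TMD8 150 nM library (edgeR adjusted p = 0.016, 0.043 and 0.025). CACNB1 was called without the first OCI-Ly1 vehicle or the third OCI-Ly1 150 nM library (edgeR adjusted p = 0.044 and 0.041), and C17orf96 on both TPM scales (limma adjusted p = 0.031 and 0.038). The PRPSAP1 call was lost when any 1 of 5 libraries was left out, with edgeR adjusted p of 0.055 to 0.074. These were the first OCI-Ly1 vehicle library, the first and second OCI-Ly1 libraries at 150 nM, the first TMD8 vehicle library and the third TMD8 library at 150 nM. It was also lost with scaling by library size alone (edgeR adjusted p = 0.092). The PNMA6C call (edgeR adjusted p = 0.04) was lost under 9 of 25 alternatives, library size alone among them (edgeR adjusted p = 0.076). The others each left out the second or the third vehicle library of either line, the first or second OCI-Ly1 library at 150 nM or the second or the third TMD8 library at 150 nM, with edgeR adjusted p of 0.052 to 0.12. The CHST2 call was lost without the third OCI-Ly1 vehicle library or the first OCI-Ly1 library at 150 nM (edgeR adjusted p = 0.072 and 0.054).

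The set was made up mostly of genes with more RNA in TMD8. In vehicle, the TMD8 mean was the higher one for 27 of 32 members, against 40.3% of genes at the minimum level, and the median ratio of TMD8 to OCI-Ly1 was 2.28 on the log2(CPM + 0.5) scale. Every member was lower in TMD8 at 500 nM, so the rule put each at 5 CPM or more in TMD8 vehicle. This fixed the order for the 12 members under 5 CPM in OCI-Ly1 vehicle, so the 40.3% is not a like comparison. At 500 nM TMD8 was higher for 16 and OCI-Ly1 for 16, with a median of 0.15. A gene chosen for a higher value in one line and a lower value in the other must move this way, so the narrowing is a description. At 150 nM, a contrast with no library of the rule apart from the estimate of spread, 21 members were higher in TMD8 and 7 higher in OCI-Ly1 (edgeR adjusted p under 0.05). Of all genes tested, 41.9% were called higher in TMD8 and 38.2% in OCI-Ly1, and among genes at the minimum level 38.3% and 47.6%. The median TMD8 to OCI-Ly1 ratio of the members there was 1.67 on the log2 scale, against 0.088 over all genes tested. Over genes at the minimum level the median lay on the other side, at 0.106 for OCI-Ly1 minus TMD8. The 12 members under 5 CPM in OCI-Ly1 vehicle bear on these 150 nM values too, so they are also a description.

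The 7 members higher in OCI-Ly1 at 150 nM were SPOCK2, C12orf75, APBB2, IFT57, CLNS1A, PRPSAP1 and EIF3CL. C1orf95, SREBF1, PPM1E and CACNB1 were not called in either direction. The OCI-Ly1 minus TMD8 difference in log2 level at 150 nM was 1.55 (SE 0.06, edgeR adjusted p = 2.6e-19) for CLNS1A and 1.09 (SE 0.10, edgeR adjusted p = 1.6e-10) for SPOCK2. It was -3.33 (SE 0.06, edgeR adjusted p = 9.6e-26) for IRF4, -5.49 (SE 0.12, edgeR adjusted p = 6.4e-25) for BATF and -5.39 (SE 0.11, edgeR adjusted p = 1e-25) for DENND3. The C1orf95 difference, -1.62 (SE 0.83, edgeR adjusted p = 0.075), was called under 5 of 25 alternatives, among them leaving out the third OCI-Ly1 library at 150 nM (-2.98, edgeR adjusted p = 0.011). For TRIM25 the direction turned on the TPM scale, from -0.54 (SE 0.06, edgeR adjusted p = 2.7e-09) on counts to 0.56 on log2(TPM + 1) (limma adjusted p = 3.4e-06). TEAD4 turned in the same way, from -0.38 (SE 0.10, edgeR adjusted p = 0.0015) to 0.68 (limma adjusted p = 1.3e-05). ENDOD1 went from -0.78 (SE 0.20, edgeR adjusted p = 0.00097) to 0.20, not called (limma adjusted p = 0.15), and PPM1E from -0.12 (SE 0.08, edgeR adjusted p = 0.16), not called, to 0.75 (limma adjusted p = 1.7e-07). SREBF1 and CACNB1 were called higher in OCI-Ly1 on that scale, at 0.93 and 0.85 (limma adjusted p = 4.4e-09 and 7.3e-07). These TPM values were not rescaled between libraries. The short RNAs MIR3687, MIR3648 and MIR663A took 17.5%, 14.3% and 10.9% of all TPM in TMD8 at 150 nM. In OCI-Ly1 at 150 nM they took 0.211%, 0.107% and 0.735%. A larger share for these RNAs leaves less TPM for all other genes, and their part in the turned directions was not tested. Since line and medium changed together, their parts in these level differences cannot be told apart.

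**Figure D4:**
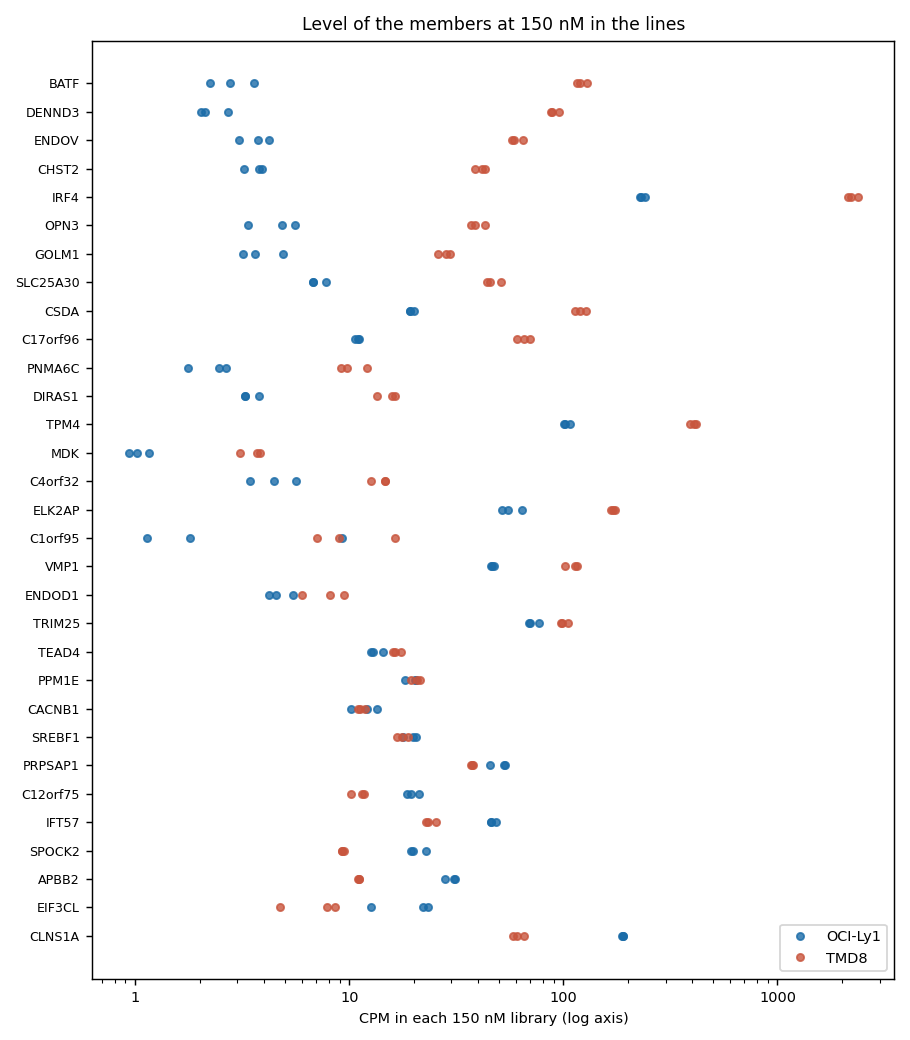
CPM in each of the 3 libraries at 150 nM (x axis, log scale) for 31 members (y axis, ordered by the fitted ratio of TMD8 to OCI-Ly1) in OCI-Ly1 (blue) and TMD8 (red). Red points lie to the right of blue points for most members, with the widest gaps for BATF and DENND3, and to the left for the 7 members called higher in OCI-Ly1.

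Chromosome 17 held more of the members than any other chromosome. By RefSeq, 8 of the 32 lie on chromosome 17 (ENDOV, SREBF1, PPM1E, C17orf96, CACNB1, VMP1, TRIM25 and PRPSAP1), or 25%, against 622 of 10030 genes at the minimum level with a known chromosome (6.2%). Chromosome 12 held 4 (12.5%, against 5.46%) and chromosome 11 held 3. On chromosome 17, 16.1% of genes at the minimum level passed the OCI-Ly1 condition and 14.3% the TMD8 condition. Over all chromosomes these shares were 15.1% and 11.4%. The chromosome count was looked at after the members were known and was not tested.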

How the data were processed

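The authors deposited estimated counts per gene symbol and TPM (transcripts per 1000000), 1 table of each for either line. The submitters' processing notes name kallisto 0.46.0, hg19, R 4.3.1 and DESeq2 1.40.2, without saying which step each served; the step from transcripts to genes is not given in the sources used here. Estimated counts were rounded before count tests. CPM used the column sum.

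Changes at 150 nM were tested per line over its 9 libraries, and the difference between lines and the level at 150 nM over all 18, with edgeR 4.0.16 (quasi-likelihood, TMM, filterByExpr, Benjamini-Hochberg over all genes; called under 0.05) in R 4.3.3. All 32 members passed the filter in each fit. On simulated data, 98 of 100 genes changed by 0.5 on the log2 scale were recovered in OCI-Ly1, 95 in TMD8 and 59 in the test between lines. The simulation gave every gene the same dispersion and changed only genes averaging 5 CPM or more. That dispersion was set by hand and not estimated from these data. These shares do not carry over to the 12 members under 5 CPM in OCI-Ly1 vehicle. Among them, C1orf95 and MDK had SEs of 0.54 and 0.34 in OCI-Ly1 at 150 nM. Nor do the shares carry over to more abundant members with a wide spread, such as EIF3CL, whose SE there was 0.21. Alternatives were other scalings, no filter, DESeq2 1.42.0, limma 3.58.1 on log2(TPM + 1) and log2(TPM + 0.1), a replicate block, single libraries left out and, chosen after seeing the data, 4 further scales for the 500 nM directions.

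The members and gene lists were chosen with earlier results of these data known. Named members were the 12 with the largest smaller change, the 5 most abundant, list members, those called in both lines or against their sign at 150 nM, threshold neighbours and those with the widest gap between lines (20 in all); the other 12 were named to account for every member. Other genes named were picked after their values were seen, whether or not this is said beside them, or are relatives or overlapping genes of members. The values of 1 member are not reported here, though all counts include it. Symbols are as deposited, and because the builds differ, RefSeq coordinates are given only for printed promoters.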

Additional observations from a re-analysis of the deposited data

Results flagged for a closer look

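In the model of all 18 libraries, the change at 150 nM against vehicle differed between the lines for 26 members (edgeR adjusted p under 0.05), each time with the OCI-Ly1 change above the TMD8 change. The 25 differences given here are OCI-Ly1 minus TMD8 on the log2 scale. Over 1 on this scale were C1orf95 with a difference of 4.08, MDK with a difference of 2.09, DENND3 with a difference of 1.36, SREBF1 with a difference of 1.07 and EIF3CL with a difference of 1.81. Between 0.6 and 1 were ENDOV (0.83), C4orf32 (0.86), DIRAS1 (0.71), C12orf75 (1.0), SLC25A30 (0.62), APBB2 (0.64), PNMA6C (0.74), OPN3 (0.77), ELK2AP (0.64) and IFT57 (0.66). Smaller differences were called for PPM1E (0.51), CSDA (0.37), CHST2 (0.52), IRF4 (0.36), TPM4 (0.40), VMP1 (0.50), CLNS1A (0.42), TEAD4 (0.53), TRIM25 (0.50) and PRPSAP1 (0.31). The vehicle libraries in these differences also chose the members. The fit called 15.0% of all genes tested in this direction. Reads of EIF3CL, PNMA6C and ELK2AP may be shared with near copies, and the C1orf95 value rests on vehicle libraries that differ widely. The calls of PNMA6C, PRPSAP1, C1orf95 and CHST2 were lost under 9, 6, 3 and 2 of 25 alternatives.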

How the results depend on the processing

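Set membership depended on the thresholds and the scale. The rule gave 229 genes on TPM (17 of the 32 among them, with the minimum level read on TPM too), 45 with median-ratio scaling of CPM, 26 with median-ratio scaling of TPM, 59 with no minimum CPM, 20 with a minimum of 10 CPM, 304 with a threshold of 0.25 and 2 with a threshold of 1. It gave 40 with TMM scaling (26 shared), 33 with a pseudocount of 0.1, and 30 to 34 with 1 library left out. At 150 nM in OCI-Ly1, the 2 members called higher became 0 by limma on both log2(TPM + 1) and log2(TPM + 0.1), and 1 to 4 with 1 library left out. The 28 called lower in TMD8 ranged from 26 to 28 with 1 library left out, the 26 called for the difference between lines from 24 to 27, and the 21 with a higher level in TMD8 from 21 to 22. The 7 members higher in OCI-Ly1 at 150 nM were 7 whichever library was left out but 12 and 12 on log2(TPM + 1) and log2(TPM + 0.1), where the 21 higher in TMD8 became 17 and 16. On those scales the OCI-Ly1 minus TMD8 level turned to 0.56 and 0.60 for TRIM25 (limma adjusted p = 3.4e-06 and 3.7e-06), 0.68 and 0.75 for TEAD4 (1.3e-05 and 1.1e-05), 0.75 and 0.99 for PPM1E (1.7e-07 and 2.9e-07), and 0.20 and 0.34, not called, for ENDOD1 (0.15 and 0.16). The TPM values on those scales were not rescaled between libraries, and the cause was not tested.

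Over the 32 members, 4 contrasts at 150 nM and their alternatives, 2543 results kept their side of the threshold, 40 lost a call, 33 gained one and 8 reversed. With the replicate number as a block, edgeR called 3 members higher in OCI-Ly1, 28 lower in TMD8, 27 for the difference between lines, and 7 and 23 for the level at 150 nM. The shares of all genes called with the block or under the other alternatives are not given here. These member counts therefore cannot be set against a background of their own. The labels do not say that a number marks a shared culture, and deviations of same-numbered libraries correlated from -0.17 to 0.369, over 0.1 in 4 of 27 pairs, so the numbers were not used as pairs. Depth limits members near 1 CPM in OCI-Ly1 vehicle, such as MDK, DENND3 and PNMA6C.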
